A study of Homo sapiens with 16 samples.

Results

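The MYC and MAX network was followed as 10 genes across 16 RNA libraries of NOMO-1, a human acute myeloid leukaemia line with monocytic features. The genes, chosen by symbol, were MYC, MAX, MXD1, MXD3, MXD4, MXI1, MNT, MGA, MLX and MLXIP, 10 of 26830 entries in the expression table. All 10 had an entry and all 10 passed the filter on low values (at least 1 TPM in at least 3 libraries), as did 14951 entries in all. The 5 groups were cells given 100 nM CS1 for 72 h (n = 3), cells given 500 nM CS2 for 72 h (n = 3), their DMSO solvent controls at 72 h (n = 4), cells carrying a lentiviral hairpin against FTO (shFTO, n = 3) and cells carrying its control hairpin (shNS, n = 3). Both hairpin groups passed through 1 week of selection in 1 µg/ml puromycin, a step the labels do not give for the compound-treated and DMSO cells. CS1 and CS2 are presented by the series as inhibitors of FTO, an enzyme that removes the methyl mark m6A from RNA, and they were used at different doses. Going by the published study as generally known, which was not consulted here, CS1 is bisantrene and CS2 is brequinar. The series calls the replicates biological, all come from this single cell line, and the labels do not say how many hairpin sequences were used. Values are TPM, transcript abundances that are scaled in each library to the same total and that take transcript length into account, so that levels of different genes can be compared. Read depth is unknown, so no counting interval can be given.

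MYC is a basic helix-loop-helix leucine zipper transcription factor that binds DNA as a pair with MAX, mostly at E-boxes of the sequence CACGTG, and drives genes of ribosome assembly, nucleotide synthesis and cell-cycle entry. MAX also pairs with the MXD proteins (MXD1, MXD3, MXD4 and MXI1), with MNT and with the very large protein MGA, and these pairs repress many of the same sites through SIN3 and histone deacetylases or, for MGA, through a polycomb complex. MLX forms a parallel arm: it pairs with MLXIP, known as MondoA, a sensor of glucose metabolites, and also with MXD1, MXD4 and MNT. In myeloid cells MYC is known for holding cells in proliferation, and MXD1 for rising as they mature.

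Some network genes carry the network's own binding sequence in front of their start. RefSeq promoter windows on GRCh38.p14, each running from 250 bases before to 50 bases after a transcript start, were found for 9 of the 10 genes, 14 windows in all, with MYC the exception. CACGTG, which reads the same on both strands, was present in the windows of MXD4, MNT and MLX, 3 of 14 (21.4%), beside 7.26% of all 35116 windows and 9.24% of the 14623 windows of tested genes. The related sequence CACGCG, read on either strand, was present in a window of MXD3, MXI1 and MGA, again 21.4%, beside 16.6% of the windows of tested genes. The bases before the start are shown for the 3 genes with CACGTG, given in capitals, and for MXD1, the repressive partner with the largest fold change after both compounds, whose window held neither sequence. They lie at chr2:69914859-69915108 (MXD1, plus strand), chr4:2262110-2262359 (MXD4, minus strand), chr17:2401061-2401310 (MNT, minus strand) and chr17:42566850-42567099 (MLX, plus strand), and each is written 5′ to 3′.
MXD1: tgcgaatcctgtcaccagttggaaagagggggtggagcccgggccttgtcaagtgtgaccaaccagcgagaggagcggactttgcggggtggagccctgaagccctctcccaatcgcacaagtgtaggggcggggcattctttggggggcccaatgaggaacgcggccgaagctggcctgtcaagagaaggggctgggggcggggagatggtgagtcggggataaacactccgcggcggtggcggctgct
MXD4: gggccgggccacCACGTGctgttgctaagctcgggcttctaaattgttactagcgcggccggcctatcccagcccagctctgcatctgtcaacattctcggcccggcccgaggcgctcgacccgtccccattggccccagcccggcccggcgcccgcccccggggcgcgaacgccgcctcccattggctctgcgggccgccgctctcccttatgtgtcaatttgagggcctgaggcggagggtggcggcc
MNT: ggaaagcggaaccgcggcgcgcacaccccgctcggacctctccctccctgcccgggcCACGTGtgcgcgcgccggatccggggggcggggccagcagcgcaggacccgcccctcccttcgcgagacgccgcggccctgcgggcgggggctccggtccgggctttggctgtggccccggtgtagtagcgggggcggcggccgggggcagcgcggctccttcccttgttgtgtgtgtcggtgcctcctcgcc
MLX: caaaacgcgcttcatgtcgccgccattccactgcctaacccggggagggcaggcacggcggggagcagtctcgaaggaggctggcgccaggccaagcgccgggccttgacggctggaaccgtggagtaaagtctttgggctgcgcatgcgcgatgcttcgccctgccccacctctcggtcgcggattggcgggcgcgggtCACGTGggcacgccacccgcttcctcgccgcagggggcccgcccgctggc
Counted from the transcript start, the first base of CACGTG stood at position -238 in MXD4, -193 in MNT and -50 in MLX. No binding was measured in these cells, so the matches describe sequence only.

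The libraries matched their labels in the gene the hairpin targets. FTO stood at 8.12, 7.49 and 8.35 TPM in shFTO cells, against 31.3, 30.8 and 32.8 TPM in shNS cells, and at 29.57 to 35.94 TPM in all compound and DMSO libraries. Across genes, replicates correlated with Pearson's r of 0.9877 to 0.993. Library composition moved with some groups. Ribosomal RNA entries took 1.04 to 1.33% of all TPM with CS1 and 0.828 to 2.95% with CS2, against 1.77 to 4.58% with DMSO, and 2.53 to 3.365% in shFTO against 1.75 to 4.48% in shNS cells. Mitochondrial-like entries took 6.49 to 6.84% with CS1 and 7.70 to 7.98% with CS2, against 8.04 to 8.39% with DMSO, and 9.08 to 9.56% in shFTO against 9.50 to 9.63% in shNS cells. CS1 did not overlap DMSO in either share, and CS2 did not in the mitochondrial-like share. Calls of network genes that changed without these entries are given beside each gene. Of 8 genes of myeloid leukaemia identity, 7 reached 1 TPM in every library, the exception being MPO (at most 0.6 TPM). Of 16 monocyte markers 13 were tested, and they moved with the groups compared here: 13 rose and 0 fell after CS1, 12 rose and 1 fell after CS2, and 10 rose and 2 fell with the FTO hairpin. Over all genes tested 37.5% rose and 14.3% fell after CS1, 49.5% and 24.6% after CS2, and 31.9% and 24.5% with the hairpin. The summed level of the monocyte markers was 4017 to 4049 TPM with CS1, 5024 to 5112 TPM with CS2 and 2641 to 2977 TPM with DMSO. It was 10340 to 10520 TPM in shFTO cells and 6072 to 6336 TPM in shNS cells. No monocyte marker was at 0 in every library of a group, although CD14 stayed at or below 0.98 TPM and MRC1 at or below 0.04 TPM. The 7 lymphocyte markers summed to 462.6 to 496.6 TPM with CS1, 430.4 to 452.3 TPM with CS2 and 263.6 to 282.1 TPM with DMSO, and to 243.7 to 261.9 TPM in shFTO and 447.3 to 466.7 TPM in shNS cells. Nearly all of this was NKG7, while CD3E was at 0 in every library. Erythroid and megakaryocyte markers summed to at most 1.9 TPM and epithelial and fibroblast markers to at most 10.6 TPM. The part of these marker levels in the results below was not tested. In such bulk RNA, fewer cells with a transcript and less of it per cell cannot be told apart.

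All 3 perturbations lowered MYC and raised MXD1, while the other network genes moved in ways that differed between the perturbations. A gene is said to have risen or fallen where limma's adjusted p, over all genes tested, was under 0.05. After CS1, 2 of the 10 genes rose and 2 fell, beside 37.5% and 14.3% of all genes tested, or 51.8% in both directions. After CS2, 4 rose and 4 fell, beside 49.5% and 24.6% of all genes, or 74.1%. With the FTO hairpin 7 rose and 2 fell, beside 31.9% and 24.5%, or 56.4%. The groups compared did not overlap for 5, 8 and 9 of the 10 genes in that order, beside 53.9%, 72.2% and 64.7% of all genes. With most genes changed in each comparison, these counts over 10 genes are a description and not a finding about the network. Both compounds were compared with the same 4 DMSO libraries. The median log2 fold change of all genes tested was itself 0.09 after CS1, 0.20 after CS2 and 0.07 with the hairpin. Scaling all libraries to a common median therefore moved many calls. Over all genes it left 3201 higher and 5246 lower after CS1 (5605 and 2142 as deposited), 5199 and 5667 after CS2 (7405 and 3674), and 3759 and 4612 with the hairpin (4776 and 3661). After this scaling 1 network gene rose and 5 fell with CS1, 2 rose and 6 fell with CS2, and 4 rose and 2 fell with the hairpin.

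**Figure D1:**
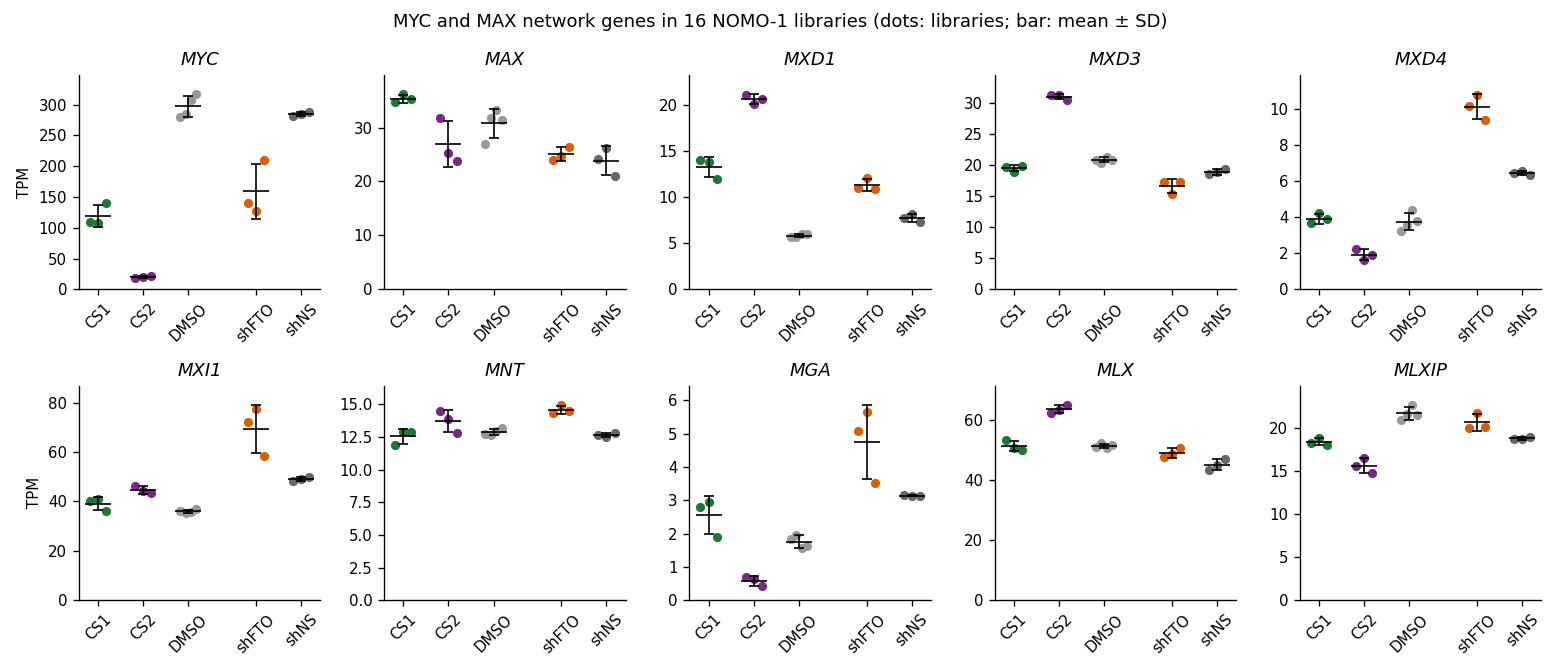
TPM of each network gene (vertical axes, linear, from 0) in the 16 libraries by group; dots are libraries and bars the mean ± SD. MYC lies lowest with CS2 (17.9 to 22.1 TPM) and MXD1 highest there (20.1 to 21.1 TPM), and MXD4, MXI1 and MGA are highest in shFTO cells.

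MYC (chromosome 8, 127735434 to 127741434, GRCh38) was the most abundant network transcript in every group but CS2. It stood at 109, 107 and 139.8 TPM in CS1 cells and 17.9, 19.2 and 22.1 TPM in CS2 cells, against 280.3, 284.6, 307 and 317 TPM with DMSO. It stood at 141, 127 and 209.6 TPM in shFTO cells, against 281, 285 and 288 TPM in shNS cells. The treated and control groups did not overlap in any of the 3 comparisons, CS2 was far below all other groups, and the CS1 and shFTO ranges overlapped each other, as did those of DMSO and shNS. The log2 fold change was -1.33 with CS1 (SE 0.135, limma adjusted p = 1.19e-06), -3.85 with CS2 (SE 0.135, adjusted p = 2.3e-12) and -0.87 with the hairpin (SE 0.145, adjusted p = 0.000117). MYC was thus left at 0.400 of its DMSO mean with CS1, at 0.0665 with CS2, and at 0.558 of its shNS mean with the hairpin. Within shFTO cells MYC was uneven: replicate 3 held the 209.6 TPM, and without it the hairpin's fold change was -1.09. The same replicate had the lowest MXI1, MGA, MXD4 and MXD1 of its group, with FTO at 8.35 TPM. Replicate 3 of CS1 likewise had the highest MYC and the lowest MXD1, MXI1 and MGA of its group.

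MAX (chromosome 14, 65006174 to 65102695), the obligate partner, did not pass the test in any of the 3 comparisons. It stood at 34.7, 36.2 and 35.3 TPM in CS1 cells and 31.8, 25.3 and 23.8 TPM in CS2 cells, against 27.0, 31.7, 33.2 and 31.4 TPM with DMSO. The shFTO libraries held 24.0, 24.7 and 26.5 TPM, against 24.3, 26.3 and 21.0 TPM in shNS cells. All CS1 libraries lay above all DMSO libraries, by a log2 fold change of 0.20 (95% interval -0.0015 to 0.40, adjusted p = 0.0907), which passed in the fit of only the groups compared (adjusted p = 0.0365). The value was -0.19 with CS2 (-0.39 to 0.01, adjusted p = 0.0768) and 0.07 with the hairpin (-0.14 to 0.29, adjusted p = 0.551), which do not show equality. The CS2 value passed after median scaling (-0.42, adjusted p = 0.000787), after quantile normalization, without the ribosomal and mitochondrial-like entries, without replicate 1 of DMSO (-0.25, adjusted p = 0.0247) and without replicate 1 of CS2 (-0.31, adjusted p = 0.00462). The hairpin value turned to -0.011 after median scaling and without replicate 3 of shNS.

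MXD1 (chromosome 2, 69897688 to 69942945), the MXD protein known to replace MYC at shared sites as myeloid cells mature, rose in all 3 comparisons. It stood at 14.0, 13.8 and 11.95 TPM in CS1 cells and 21.1, 20.1 and 20.7 TPM in CS2 cells, against 5.66, 5.68, 6.01 and 5.97 TPM with DMSO. It stood at 11, 12.1 and 10.8 TPM in shFTO cells, against 7.70, 8.12 and 7.33 TPM in shNS cells. No group overlapped its control, and the order of levels was CS2 above CS1 and shFTO, which overlapped narrowly, then shNS, then DMSO. The log2 fold change was 1.06 with CS1 (SE 0.059, adjusted p = 2.36e-09), 1.66 with CS2 (SE 0.059, adjusted p = 2.69e-12) and 0.50 with the hairpin (SE 0.064, adjusted p = 9.68e-06). These calls held under every alternative listed in the closing section.

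The other MXD genes parted from MXD1. MXD3 (chromosome 5, 177301461 to 177312757), the MXD protein linked to cells in S phase, stood at 19.8, 18.9 and 19.9 TPM in CS1 cells and 31.2, 31.2 and 30.5 TPM in CS2 cells, against 20.4 to 21.3 TPM with DMSO. In shFTO cells it stood at 17.2, 15.4 and 17.3 TPM, against 18.5, 18.8 and 19.3 TPM in shNS cells. It rose with CS2 (log2 fold change 0.55, SE 0.043, adjusted p = 1.51e-08) and fell with the hairpin (-0.18, SE 0.046, adjusted p = 0.00426), and no group overlapped its control. With CS1 the value was -0.09 (adjusted p = 0.086), which passed after median scaling (-0.27, adjusted p = 0.000434), after quantile normalization and without the ribosomal and mitochondrial-like entries.

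MXD4 (chromosome 4, 2247432 to 2262294), known in differentiating and resting cells, was the least abundant MXD gene. It stood at 3.65, 4.20 and 3.88 TPM in CS1 cells and 2.21, 1.63 and 1.90 TPM in CS2 cells, against 3.24, 3.55, 4.36 and 3.76 TPM with DMSO. The shFTO libraries held 10.1, 10.8 and 9.37 TPM, against 6.43, 6.53 and 6.33 TPM in shNS cells. It thus fell with CS2 (log2 fold change -0.70, SE 0.087, adjusted p = 2.85e-06) and rose with the hairpin (0.58, SE 0.093, adjusted p = 8.61e-05). With CS1 the ranges overlapped (0.06, adjusted p = 0.602), and the sign was negative after median scaling and quantile normalization.

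MXI1 (chromosome 10, 110207605 to 110287365), a MYC antagonist also induced by hypoxia, was the most abundant of the 6 repressive partners in every group. It stood at 40.2, 40.9 and 36.1 TPM in CS1 cells and 46.5, 44.0 and 43.5 TPM in CS2 cells, against 35.1 to 36.9 TPM with DMSO. In shFTO cells it stood at 72.1, 77.3 and 58.4 TPM, against 48.5, 49.1 and 49.8 TPM in shNS cells. It rose with the hairpin (log2 fold change 0.48, SE 0.077, adjusted p = 8.19e-05) and with CS2 (0.31, SE 0.072, adjusted p = 0.00125). The CS2 value lay 0.11 above the median of all genes and did not pass after median scaling (0.08, adjusted p = 0.337) or quantile normalization (0.09, adjusted p = 0.314). With CS1, where 1 library lay inside the DMSO range, the value was 0.11 (adjusted p = 0.198), negative after both of these scalings.

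**Figure D2:**
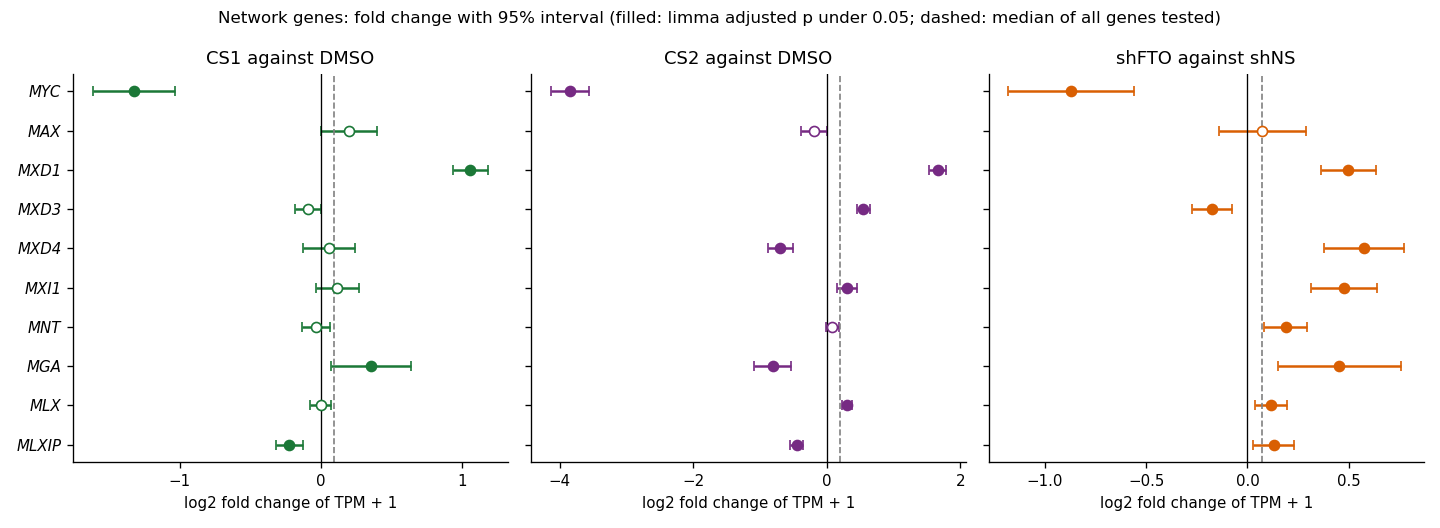
Log2 fold change of TPM + 1 (horizontal axes, different ranges) of each network gene with its 95% interval, for CS1 and CS2 against DMSO and shFTO against shNS; filled points passed limma's test and the dashed line is the median of all genes tested. MYC lies left and MXD1 right of 0 in all 3 panels, while MXD4 and MGA lie left of 0 with CS2 (-0.70 and -0.81) and right of it with the hairpin (0.58 and 0.45).

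MNT (chromosome 17, 2384060 to 2401118), the MAX partner found in dividing and resting cells alike, changed little. It stood at 11.9, 12.9 and 12.9 TPM in CS1 cells and 14.5, 13.9 and 12.8 TPM in CS2 cells, against 12.7 to 13.2 TPM with DMSO. The shFTO libraries held 14.3, 15.0 and 14.5 TPM, against 12.6, 12.5 and 12.8 TPM in shNS cells. It rose with the hairpin by 0.19 on the log2 scale (SE 0.049, adjusted p = 0.00427), which did not pass after median scaling (0.10, adjusted p = 0.0858) or quantile normalization (0.11, adjusted p = 0.0684). With CS1 the value was -0.04 (adjusted p = 0.548) and passed as a fall after median scaling (-0.21, adjusted p = 0.00123) and quantile normalization. With CS2 it was 0.08 (adjusted p = 0.124). It turned to -0.15 after median scaling (adjusted p = 0.0097) and to -0.14 after quantile normalization (adjusted p = 0.0145), and without replicate 3 of CS2 it was 0.13 (adjusted p = 0.0221).

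MGA (chromosome 15, 41621224 to 41773081), the scaffold of a polycomb repressive complex, was rare and split between CS2 and the hairpin. It stood at 2.81, 2.96 and 1.90 TPM in CS1 cells and 0.68, 0.63 and 0.41 TPM in CS2 cells, against 1.85, 1.97, 1.58 and 1.64 TPM with DMSO. In shFTO cells it stood at 5.08, 5.66 and 3.52 TPM, against 3.15, 3.14 and 3.14 TPM in shNS cells. It fell with CS2 (log2 fold change -0.81, SE 0.132, adjusted p = 4.9e-05) and rose with the hairpin (0.45, SE 0.142, adjusted p = 0.013), each with groups apart. The rise with the hairpin did not pass without replicate 2 of shFTO (0.34, adjusted p = 0.0739) or after quantile normalization (0.27, adjusted p = 0.0718). With CS1 the groups overlapped, and the value of 0.35 just passed (SE 0.132, adjusted p = 0.0359). It did not pass without replicate 1 or 2 of CS1 (adjusted p = 0.132 and 0.154) or replicate 3 or 4 of DMSO (0.0825 and 0.0745), nor with no filter, after either scaling or without the ribosomal and mitochondrial-like entries. At this level the scale with 1 TPM added understates the size of a change.

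In the parallel arm, MLX (chromosome 17, 42567068 to 42573239) stood at 53.1, 50.5 and 50.01 TPM in CS1 cells and 62.3, 63.3 and 64.8 TPM in CS2 cells, against 50.6 to 52.3 TPM with DMSO. The shFTO libraries held 47.6, 48.6 and 50.7 TPM, against 43.4, 44.9 and 46.9 TPM in shNS cells. All CS2 libraries were above DMSO (log2 fold change 0.30, SE 0.035, adjusted p = 1.54e-06), 0.10 above the median of all genes, and the call was lost after median scaling (0.07, adjusted p = 0.106) and quantile normalization (0.06, adjusted p = 0.137). The hairpin value of 0.12 (adjusted p = 0.0162) did not pass after median scaling (0.03, adjusted p = 0.544), without replicate 1 of shNS (0.09, adjusted p = 0.0818), without replicate 3 of shFTO (0.09, adjusted p = 0.0564) or with only these groups in the fit. With CS1 the value was -0.0032 (95% interval -0.08 to 0.07), passing as a fall after both scalings.

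MLXIP (chromosome 12, 122078722 to 122147347), which carries the glucose-sensing domain of the MLX pair, fell with both compounds. It stood at 18.3, 18.8 and 18.1 TPM in CS1 cells and 15.6, 16.5 and 14.8 TPM in CS2 cells, against 20.9, 21.6, 22.6 and 21.5 TPM with DMSO. In shFTO cells it stood at 20.0, 21.8 and 20.1 TPM, against 18.7, 18.7 and 19.0 TPM in shNS cells. The log2 fold change was -0.23 with CS1 (SE 0.045, adjusted p = 0.000603) and -0.45 with CS2 (SE 0.045, adjusted p = 2.41e-07), with no overlap. The hairpin value of 0.13 (adjusted p = 0.0316) also came with groups apart. It did not pass without replicate 1, 2 or 3 of shNS (adjusted p = 0.0766, 0.0758 and 0.0577), without replicate 2 of shFTO (0.146), after either scaling or with only these groups in the fit. The ratio of MLX to MLXIP was 2.79 ± 0.114 with CS1 and 4.07 ± 0.278 with CS2, against 2.37 ± 0.092 with DMSO, and 2.38 ± 0.144 in shFTO against 2.40 ± 0.074 in shNS cells (SD).

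Counted together, the transcripts for MAX partners shifted away from MYC. MYC made up 56.5% ± 4.62 of the summed TPM of MYC and the 6 repressive partners (MXD1, MXD3, MXD4, MXI1, MNT and MGA) with CS1 and 15.0% ± 1.71 with CS2, against 78.6% ± 0.733 with DMSO. It made up 55.0% ± 8.67 in shFTO cells, against 74.4% ± 0.0462 in shNS cells (SD). Transcripts of the 6 partners summed to 86.5 to 93.7 TPM with CS1 and 109.8 to 116.1 TPM with CS2, against 79.4 to 82.3 TPM with DMSO, and to 113.9 to 136.1 TPM in shFTO against 96.9 to 98.8 TPM in shNS cells. Per MYC transcript there were 0.779 ± 0.139 of them with CS1, 5.74 ± 0.758 with CS2 and 0.273 ± 0.0118 with DMSO, and 0.846 ± 0.272 in shFTO against 0.344 ± 0.000896 in shNS cells. Only in the CS2 libraries was MYC itself below MAX, with a ratio of 0.564 to 0.930, against 8.98 to 10.4 in DMSO libraries. These sums describe transcripts, not protein pairs, and combine genes already tested one by one, so no test is given. The summed levels are of TPM as deposited and were not formed after median scaling. With CS1 that scaling put MXD3 (-0.27), MNT (-0.21), MXD4 (-0.12) and MXI1 (-0.06) below 0, while MXD1 still rose and MGA stayed above 0 (0.18).

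**Figure D3:**
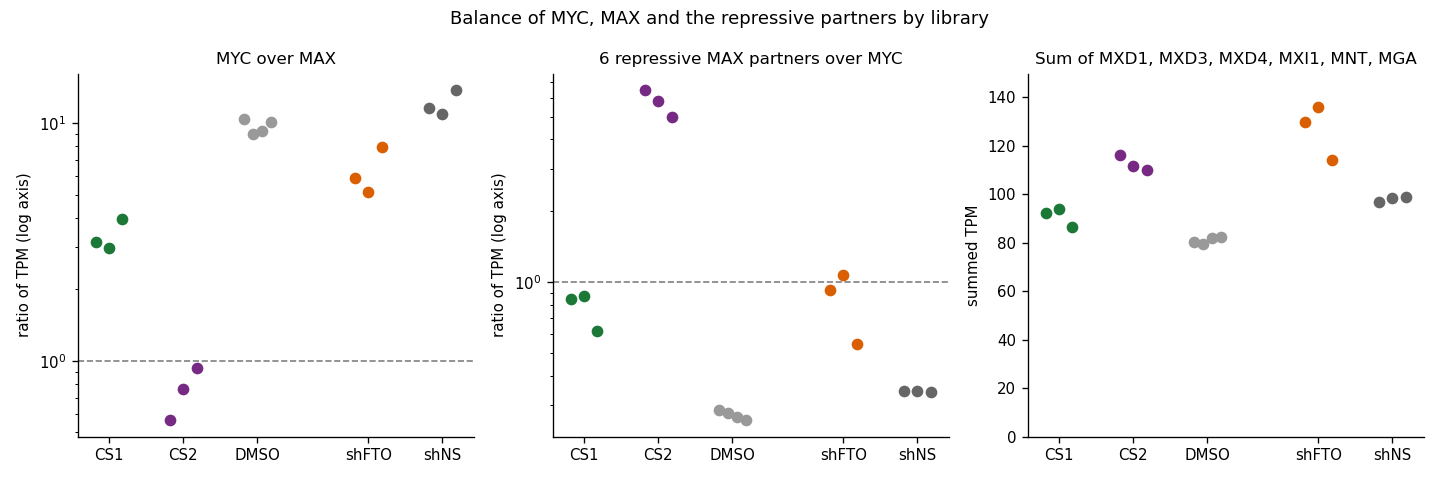
Ratio of MYC to MAX (left, log axis), ratio of the 6 summed repressive partners to MYC (middle, log axis) and their summed TPM (right, linear axis from 0) for each library by group; the dashed line marks a ratio of 1. The CS2 libraries lie below 1 for MYC over MAX and at 4.96 to 6.47 for the partners over MYC, and the highest partner sums are in shFTO cells (113.9 to 136.1 TPM).

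The makeup of the repressive partners differed as well. MXD1 made up 14.6% ± 0.682 of the 6 with CS1 and 18.3% ± 0.437 with CS2, against 7.20% ± 0.120 with DMSO, and 8.95% ± 0.521 in shFTO against 7.88% ± 0.427 in shNS cells (SD). MXI1 made up 54.5% ± 2.89 of the 6 in shFTO cells, against 50.1% ± 0.256 in shNS cells. Its share was 43.0% ± 1.11 with CS1 and 39.7% ± 0.250 with CS2, against 44.4% ± 0.573 with DMSO.

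The response to each compound was compared with that to the hairpin as the difference of their log2 fold changes, which use separate controls. For CS1, 1 network gene had a higher value than with the hairpin and 4 a lower one, beside 31% and 18.3% of all genes (49.4% in both directions). MXD1 was higher with CS1 by 0.56 (SE 0.087, adjusted p = 8.8e-05), while MXD4 (-0.52, adjusted p = 0.00343), MXI1 (-0.36, adjusted p = 0.00972), MLXIP (-0.35, adjusted p = 0.000385) and MNT (-0.23, adjusted p = 0.0125) were lower. For MYC the difference was -0.45 (95% interval -0.88 to -0.03, adjusted p = 0.0708). Leaving out single libraries gave -0.60 to -0.24, and the smallest difference was that without the uneven replicate 3 of shFTO (-0.24, adjusted p = 0.158). It passed without replicate 3 of CS1 (-0.58, adjusted p = 0.0267), without replicate 2 of shFTO (-0.60, adjusted p = 0.0175), after median scaling (-0.55, adjusted p = 0.0461), after quantile normalization and without the ribosomal and mitochondrial-like entries. The MLX difference of -0.12 (adjusted p = 0.068) passed without these entries (-0.18, adjusted p = 0.0098), after both scalings, without replicate 1 of CS1 (adjusted p = 0.0409) and without replicate 3 of shNS (adjusted p = 0.0365). For CS2, 3 network genes were higher and 4 lower than with the hairpin, beside 39.8% and 23.7% of all genes (63.4%). MYC fell further with CS2, by -2.98 (SE 0.198, adjusted p = 5.64e-09), and MXD1 rose further, by 1.16 (SE 0.087, adjusted p = 1.92e-08). MXD3 was higher with CS2 by 0.72 (adjusted p = 9.33e-08), and MXD4 and MGA were lower by -1.27 each (adjusted p = 4.22e-07 and 3.73e-05), as was MLXIP by -0.58 (adjusted p = 1.66e-06). MLX was higher by 0.18 (adjusted p = 0.00567), which was 0.04 after median scaling (adjusted p = 0.553). MAX (-0.27, adjusted p = 0.105), MXI1 (-0.17, adjusted p = 0.167) and MNT (-0.11, adjusted p = 0.181) did not pass for CS2. All of them passed as lower after median scaling (-0.41, -0.32 and -0.25) and after quantile normalization. MAX also passed without replicate 1 of DMSO or replicate 1 of CS2, and MXI1 without replicate 3 of shFTO. Median scaling changed the calls over all genes to 3756 higher and 4072 lower for CS1 against the hairpin response (4638 and 2742 as deposited), and to 4875 and 4684 for CS2 (5947 and 3538).

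Between the compounds, used at different doses, all 10 genes passed, 5 higher and 5 lower with CS1 than with CS2, beside 26.2% and 40.4% of all genes (66.6%). The groups did not overlap for 9 genes, beside 67.6% of all genes. MYC was higher with CS1 by 2.52 (SE 0.145, adjusted p = 1.28e-09), MGA by 1.17 (adjusted p = 3.7e-06), MXD4 by 0.76 (adjusted p = 4.06e-06), MAX by 0.39 (adjusted p = 0.00307) and MLXIP by 0.22 (adjusted p = 0.000776). MXD3 was lower with CS1 by -0.64 (adjusted p = 1.31e-08), MXD1 by -0.60 (adjusted p = 8.14e-07) and MLX by -0.31 (adjusted p = 4.68e-06). The calls of MXI1 (-0.19, adjusted p = 0.0385) and MNT (-0.12, adjusted p = 0.0481) were each lost when single libraries were left out. That of MXI1 was lost without replicate 3 of CS1 (adjusted p = 0.163) or replicate 1 or 2 of CS2 (0.118 and 0.0637), and that of MNT without replicate 1 of CS1 (0.197) or replicate 1 or 2 of CS2 (0.202 and 0.113). Both were also lost after either scaling. Because dose and compound differ together, their parts in these differences cannot be told apart.

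Genes known to be activated by MYC fell in most cases. Of a list of 40, covering nucleolar assembly, nucleotide and polyamine synthesis, translation factors, chaperones and the cell cycle, 26 fell and 3 rose after CS1, 34 fell and 3 rose after CS2, and 38 fell and 2 rose with the hairpin. Over all genes 14.3% fell and 37.5% rose after CS1, 24.6% fell and 49.5% rose after CS2, and 24.5% fell and 31.9% rose with the hairpin. The list's median log2 fold change was -0.22, -0.55 and -0.56 in that order, beside 0.09, 0.20 and 0.07 over all genes tested. After median scaling 36, 37 and 38 fell and 1 rose in each, and with the hairpin 1 rose without replicate 1 of shNS. Leaving out single libraries gave 19 to 28 falls with CS1, 33 to 34 with CS2 and 35 to 38 with the hairpin. The CS1 count was 19 of 40 without replicate 1 or 2 of CS1. The median for the hairpin was about as low as for CS2, while MYC itself fell by 0.87 with the hairpin and by 3.85 with CS2 on the log2 scale. Over the list, 26 genes were higher and 4 lower with CS1 than with the hairpin, beside 31% and 18.3% of all genes. The count of lower genes was 2 without replicate 1 or 2 of CS1, replicate 3 or 4 of DMSO, replicate 1 of shFTO or replicate 1 or 3 of shNS, and 6 without replicate 3 of CS1. With CS2 16 were higher and 11 lower than with the hairpin, beside 39.8% and 23.7% of all genes. After median scaling these became 18 and 7 for CS1, and 9 and 13 for CS2. The median difference for CS2 was 0.037, and -0.11 after median scaling.

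Cyclin D2 (CCND2), which drives entry into the cell cycle, was low in all 3. It averaged 16.8 ± 1.72 TPM with CS1 and 5.27 ± 0.257 TPM with CS2, against 34.5 ± 2.28 TPM with DMSO, and 15.3 ± 0.517 TPM in shFTO against 31 ± 0.844 TPM in shNS cells (SD). Its log2 fold changes were -0.99 (adjusted p = 8.7e-09), -2.50 (adjusted p = 1.34e-13) and -0.98 (adjusted p = 2.32e-08). Nucleophosmin (NPM1), a nucleolar chaperone, averaged 1988 ± 150.3 TPM with CS1 and 839.9 ± 18.04 TPM with CS2, against 2614 ± 146.8 TPM with DMSO. In shFTO cells it averaged 1671 ± 25.5 TPM, against 1919 ± 38.7 TPM in shNS cells, with log2 fold changes of -0.40 for CS1, -1.64 for CS2 and -0.20 for the hairpin. The ribosome assembly factor BOP1 fell by -0.31, -2.07 and -1.02 in the same order.

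IMPDH2, the rate-limiting enzyme of guanine nucleotide synthesis, had its lowest level in shFTO cells. It averaged 189.7 ± 3.04 TPM in shFTO cells, against 510.3 ± 7.95 TPM in shNS cells (log2 fold change -1.42, adjusted p = 1.04e-11). With CS2 it averaged 314.6 ± 18.6 TPM and with CS1 444.6 ± 27.8 TPM, against 457.3 ± 15.9 TPM with DMSO (-0.54, adjusted p = 2.74e-08, and -0.04, adjusted p = 0.458). PPAT, the first enzyme of purine synthesis, fell by 0.69 with the hairpin and by 0.19 and 0.22 on the log2 scale with CS2 and CS1. DKC1, which modifies ribosomal RNA and stabilises telomerase, fell with the hairpin (-0.998) and with CS2 (-0.76), and was -0.06 with CS1 (adjusted p = 0.372). The splicing factor HNRNPA1 and the nuclear protein PTMA fell in all 3, HNRNPA1 by -0.44, -1.19 and -0.31 and PTMA by -0.59, -0.87 and -0.89 for CS1, CS2 and the hairpin.

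The few members that rose are named here because they did. UBTF, which opens ribosomal DNA for transcription, rose after both compounds (0.17 and 0.22), as did the cell-cycle phosphatase CDC25A (0.31 and 1.04), while both fell with the hairpin (-0.42 and -1.07). MTHFD2, a mitochondrial folate enzyme, rose after CS1 (0.49, adjusted p = 7.63e-07), and RCC1, which loads the small GTPase RAN, rose after CS2 (0.13, adjusted p = 0.00752). The median over all genes tested was 0.20 after CS2, about the value of UBTF and above that of RCC1. After median scaling or quantile normalization, only 1 listed gene rose after CS1 and 1 after CS2, against 3 each as deposited. With the hairpin LDHA, of lactate formation, rose by 0.52 (adjusted p = 1.39e-05) and TFRC, the transferrin receptor, by 0.39 (adjusted p = 0.0198). Apart from MTHFD2, these genes were chosen after their values were seen. In RefSeq windows, CACGTG was present in 27.7% of 47 windows of the listed genes, beside 9.24% of the windows of tested genes.

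**Figure D4:**
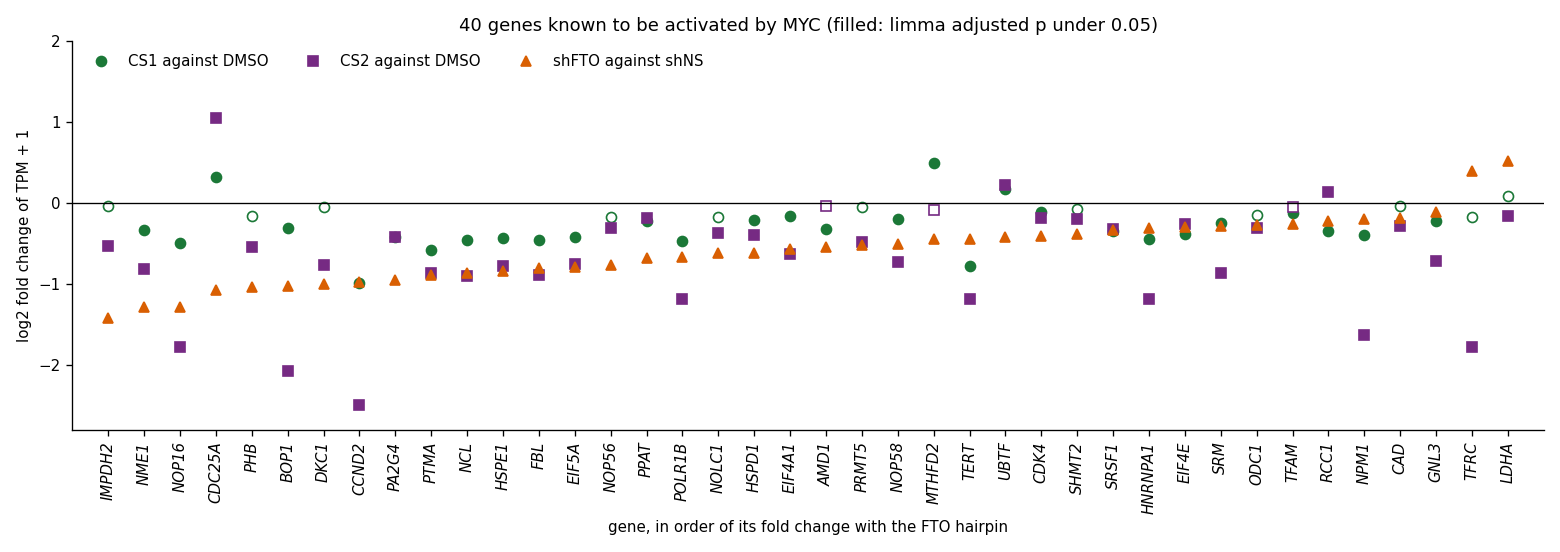
Log2 fold change of TPM + 1 (vertical axis) of 40 genes known to be activated by MYC, ordered along the horizontal axis by the change with the FTO hairpin, for CS1 (circles), CS2 (squares) and the hairpin (triangles); filled symbols passed limma's test. Most symbols lie below 0, CCND2 reaches -2.50 with CS2, and CDC25A lies above 0 with both compounds but at -1.07 with the hairpin.

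Of 8 genes known to be repressed by MYC, 7 had an entry and 6 were tested. After CS1 2 rose and 2 fell, after CS2 3 rose and 2 fell, and with the hairpin 3 rose and 1 fell. Over all genes 37.5% rose and 14.3% fell after CS1, 49.5% and 24.6% after CS2, and 31.9% and 24.5% with the hairpin. With 6 genes tested, the counts are a description and not a result about this list. CDKN1A, the inhibitor p21, rose in all 3: it averaged 53.8 ± 9.35 TPM with CS1 and 100.8 ± 15.4 TPM with CS2, against 6.56 ± 0.376 TPM with DMSO, and 27.5 ± 5.84 TPM in shFTO against 14.8 ± 0.600 TPM in shNS cells. Its log2 fold changes were 2.85, 3.74 and 0.83 (adjusted p = 4e-10, 2.18e-12 and 0.000137). CDKN2B, the inhibitor p15, rose with CS2 (1.84) and the hairpin (0.55). NDRG1, a stress-induced gene, rose with CS1 (0.73) and CS2 (1.23) but fell with the hairpin (-1.05, adjusted p = 1.18e-11). CDKN1B, the inhibitor p27, fell with CS1 (-0.28) and CS2 (-0.87).

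Of 3 genes known as targets of MLX with MLXIP, TXNIP and KLF10 were tested and ARRDC4 stayed at or below 0.05 TPM. TXNIP, which restrains glucose uptake, averaged 137.1 ± 9.95 TPM with CS1 and 226.0 ± 12.4 TPM with CS2, against 25.8 ± 1.03 TPM with DMSO, and 126.9 ± 29.7 TPM in shFTO against 57.9 ± 0.680 TPM in shNS cells. It rose by 2.37, 3.08 and 1.09 on the log2 scale (adjusted p = 5.55e-10, 3.82e-12 and 2.67e-06). KLF10, a transcription factor also induced by TGF-beta, rose by 1.25 and 1.54 with CS1 and CS2 and fell with the hairpin (-0.27, adjusted p = 0.00225).

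Among other factors of the network, MYCN and MLXIPL were at most 0.02 and 0.08 TPM and were not tested. ZBTB17, known as MIZ1, with which MYC represses genes, averaged 12.2 ± 0.481 TPM with CS1 and 22.6 ± 1.35 TPM with CS2, against 9.81 ± 0.765 TPM with DMSO (log2 fold change 0.28, adjusted p = 0.00142, and 1.13, adjusted p = 3.01e-10). In shFTO cells it averaged 14.1 ± 0.849 TPM, against 12.6 ± 0.509 TPM in shNS cells (0.15, adjusted p = 0.0718). MYCL, a MYC relative, was low and fell with CS2 (-0.43, adjusted p = 0.000227) but rose with the hairpin (0.46, adjusted p = 0.000382).

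Genes that act with MYC or its antagonists were counted against the same shares of all genes: 37.5% higher and 14.3% lower after CS1, 49.5% and 24.6% after CS2, and 31.9% and 24.5% with the hairpin. Of 14 MYC coactivators, 3 rose and 1 fell after CS1, 9 rose and 5 fell after CS2, and 3 rose and 7 fell with the hairpin. With most genes called after CS2, the CS2 counts are not a result about this list. The ATPases RUVBL1 and RUVBL2, of the TIP60 complex that MYC recruits, fell with CS2 (-1.29 and -0.72) and with the hairpin (-0.72 and -0.76). RUVBL2 also fell with CS1 (-0.31), where RUVBL1 was at -0.08 (adjusted p = 0.294). The acetyltransferase CREBBP rose after CS1 (0.35) and EP400 fell with the hairpin (-0.88). The CS1 count of rises was 1 without replicate 3 or 4 of DMSO or replicate 1 or 2 of CS1, that of falls was 2 without replicate 1 of DMSO or replicate 2 of CS1, and after median scaling 1 rose and 10 fell with CS1 and 5 rose and 5 fell with CS2.

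Of 14 SIN3 and NCOR corepressor genes that serve the MXD proteins, 7 rose and 1 fell after CS1, 11 rose and 2 fell after CS2, and 3 rose and 7 fell with the hairpin. Over all genes 37.5% rose and 14.3% fell after CS1, 49.5% and 24.6% after CS2, and 31.9% and 24.5% with the hairpin. The list's median was 0.13, 0.35 and -0.09 in that order, beside 0.09, 0.20 and 0.07 over all genes, and -0.05, 0.12 and -0.17 after median scaling. SAP30 and the histone chaperone RBBP4 rose after CS2 (0.96 and 0.87), and the deacetylase HDAC2 fell after CS1, after CS2 and with the hairpin (-0.15, -0.35 and -0.59). The CS1 count of rises was 4 without replicate 2 of CS1, and after median scaling 2 rose and 5 fell with CS1 and 7 rose and 4 fell with CS2. With CS2 1 fell without replicate 2 of CS2, and with the hairpin 1 rose without replicate 1 of shNS. Of 12 genes of the MGA polycomb complex, which shares HDAC1, HDAC2 and WDR5 with the other lists, 3 rose and 3 fell after CS1, 7 rose and 3 fell after CS2, and 2 rose and 7 fell with the hairpin. Its defining subunit PCGF6 rose after CS1 (0.22) and CS2 (0.69) and fell with the hairpin (-0.64, adjusted p = 1.77e-08), while RYBP rose with CS1 (0.44) and the hairpin (0.53). After median scaling 1 gene of this list rose and 8 fell with CS1, and 5 rose and 5 fell with CS2. Beside the shares over all genes, the CS2 counts as deposited are not a result about the MGA complex list.

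**Figure D5:**
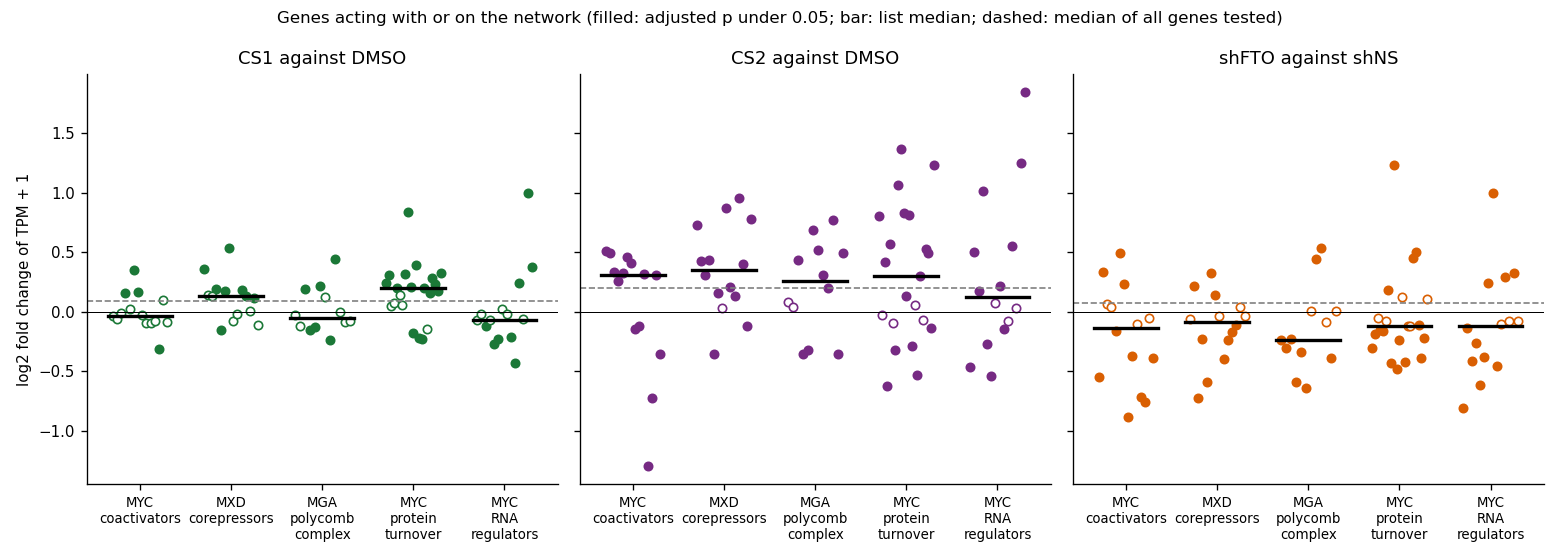
Log2 fold change of TPM + 1 (vertical axis) of genes in 5 lists that act with or on the network, for CS1, CS2 and the FTO hairpin against their controls; filled points passed limma's test, bars are list medians and the dashed line is the median of all genes tested. All 5 list medians lie below 0 with the hairpin, and all 5 lie above 0 with CS2, where that of the MYC RNA regulators (0.13) turns to -0.10 after median scaling. With CS2 the dashed line itself lies at 0.20, above the median of the MYC RNA regulators and below those of the other lists. It lies at 0.07 with the hairpin.

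Of 21 genes that set the stability of MYC protein, 13 rose and 3 fell after CS1, 12 rose and 5 fell after CS2, and 4 rose and 11 fell with the hairpin. Over all genes 37.5% rose and 14.3% fell after CS1, 49.5% and 24.6% after CS2, and 31.9% and 24.5% with the hairpin. Beside these shares, the CS2 counts are not a result about this list. After median scaling 4 rose and 4 fell with CS1 and 10 rose and 9 fell with CS2. PIM1, a kinase that stabilises MYC, rose in all 3. It averaged 136.1 ± 9.58 TPM with CS1 and 196.5 ± 7.31 TPM with CS2, against 75.4 ± 3.66 TPM with DMSO, and 161.8 ± 6.36 TPM in shFTO against 68.2 ± 1.70 TPM in shNS cells (log2 fold changes 0.84, 1.37 and 1.23). Of 15 genes whose products bind or regulate MYC RNA, 14 were tested: 3 rose and 5 fell after CS1, 7 rose and 4 fell after CS2, and 4 rose and 7 fell with the hairpin. After median scaling 2 rose and 11 fell with CS1 and 5 rose and 7 fell with CS2. For the RNA regulators too, the CS2 counts beside the shares over all genes are not a result about the list. ZFP36 and ZFP36L1, which speed the decay of AU-rich messages, rose with CS1 (1.00 and 0.38) and CS2 (1.25 and 1.84). IGF2BP3, an m6A reader known to stabilise MYC messages, rose with the hairpin, to 43.7 ± 2.95 TPM in shFTO against 21.4 ± 0.929 TPM in shNS cells (0.99, adjusted p = 2.43e-08). With the hairpin CNBP, which binds MYC regulatory DNA, fell (-0.81, adjusted p = 3.41e-10), as did the RNA-stabilising protein ELAVL1 (-0.41).

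Across the 16 libraries, the genes whose log2(TPM + 1) followed MYC most closely, of 9923 with a mean of at least 5 TPM, were RAC3 (Pearson's r = 0.99), ZDHHC8, FAAP100, PCID2 and HNRNPA1 (0.99). Those most opposed were SRPK2 (-0.99), SYTL3, EIF5A2, MSL1 and TRAFD1 (-0.99). For MXD1 the closest were MPC2 (0.99), IFNGR1, ANXA1, C3AR1 and ARHGAP1 (0.99), and among the most opposed were ANKRD13B (-0.98), PRTG, CLNS1A and P2RY2 (-0.97). The libraries form 5 groups, so these values mostly describe group means. SYTL3, for example, averaged 9.96 TPM with CS1, 58.4 TPM with CS2 and 2.90 TPM with DMSO, and 7.11 TPM in shFTO against 3.35 TPM in shNS cells. ANXA1 averaged 227.6 TPM with CS1, 467.5 TPM with CS2 and 39.1 TPM with DMSO, and 144.1 TPM in shFTO against 59.5 TPM in shNS cells.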

How the data were processed

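RNA was measured in 16 NOMO-1 libraries after poly(A) selection, per the labels' protocols. The authors deposited one table of TPM, transcript abundance scaled to a fixed total. The unit was read from the values, since each column sums to 1000000 within rounding. RSEM 1.2.31 and GRCh38 are named in the submitters' processing notes. Aligner and annotation were not given in the sources used here. Each column was matched to its sample by its name. Identical values were found in 0 pairs of libraries. The labels give no batch or date.

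From the deposited TPM, log2(TPM + 1) of the 14951 entries reaching 1 TPM in 3 or more libraries was fitted with limma 3.58.1 in R 4.3.3 (lmFit, eBayes with a mean-variance trend), 1 mean per group over all 16 libraries, without a replicate term. Tests were two-sided with Benjamini-Hochberg adjustment over all genes tested and a threshold of 0.05. Fold changes on this scale understate those of low genes. The code was tested on simulated data. Alternatives were pseudocounts of 0.1 and 0.5, no filter, a filter of 5 TPM, median scaling and quantile normalization of the log2 values, leaving out 4 ribosomal RNA and 12 mitochondrial-like entries before rescaling to TPM, a fit of only the groups compared, a replicate term, no variance trend, and leaving out each library.

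The 10 members, the gene lists and the tests were chosen with earlier results of these data known. Named were all members and FTO, up to 4 genes per list and comparison with the smallest adjusted p (all genes of lists of 4 or fewer), and, for MYC and MXD1, the 5 genes most and least correlated. CIP2A was matched through its older symbol, and CDKN1C was not analysed here. A few genes that this rule names are not reported here. Gene positions came from GENCODE release 29 and promoter windows from RefSeq. Plots and sums used Python 3.11.15 with pandas 2.3.3, numpy 2.4.6 and matplotlib 3.10.9.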

Additional observations from a re-analysis of the deposited data

Results flagged for a closer look

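Genes were listed here where a compound and the FTO hairpin moved them in opposite directions and the difference of the responses passed limma's test. Against the hairpin response, the CS2 response of MXD3 was higher by 0.72 on the log2 scale (rise with CS2, fall with the hairpin), that of MXD4 lower by -1.27, that of MGA lower by -1.27 and that of MLXIP lower by -0.58. The CS1 response of MLXIP was lower than the hairpin response by -0.35. MXD4, MGA and MLXIP fell with the compound named and rose with the hairpin, although the MGA and MLXIP rises with the hairpin did not pass when single libraries were left out. No network gene in the DMSO group, the only one with 4 libraries, had a library far from the others by Dixon's criterion.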

How the results depend on the processing

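The directions and calls of MYC and MXD1 against DMSO or shNS held under all alternatives run. Counts of network genes depended on the scaling. With median scaling or quantile normalization, rises against DMSO numbered 1 for CS1 (2 as deposited) and 2 for CS2 (4), falls with CS1 numbered 5 (2), rises with the hairpin numbered 4 (7), genes lower with CS1 than CS2 numbered 3 (5), and genes lower with CS2 than with the hairpin numbered 7 (4). CS1 rises also numbered 1 with no filter, with the 5 TPM filter, where MGA could not be tested, and without the ribosomal and mitochondrial-like entries. Leaving out single libraries gave 1 to 2 rises with CS1, 4 to 5 rises and 4 to 5 falls with CS2, and 5 to 7 rises with the hairpin. It also gave 3 to 5 genes lower with CS1 than CS2, and 4 to 5 lower with either compound than with the hairpin. With only the groups compared in the fit, 5 genes rose with the hairpin and 3 with CS1. The cause was not tested.

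Signs that turned belonged to small values, most of which did not pass limma's test before or after turning. MNT with CS2 did not pass as deposited and passed as a fall once turned. The CS2 minus hairpin difference of MLX passed as deposited (0.185, adjusted p = 0.00567) and did not pass once turned (adjusted p = 0.154). Under median scaling and quantile normalization the values that turned were, for CS1 against DMSO, MXD4 (-0.12 and -0.067) and MXI1 (-0.063 and -0.018), and, for CS2 against DMSO, MNT (-0.15 and -0.14). Under median scaling they were MAX with the hairpin (-0.011) and the CS1 minus hairpin difference of MXD3 (-0.0094). Under quantile normalization they were the CS1 minus hairpin difference of MGA (0.002) and the CS2 minus hairpin difference of MLX (-0.082). Leaving out single libraries turned MLX with CS1 (range -0.029 to 0.013, above 0 without replicate 2 of DMSO or replicate 2 or 3 of CS1), MAX with the hairpin (-0.011 without replicate 3 of shNS, up to 0.14) and the CS1 minus hairpin difference of MGA (-0.26 to 0.041, above 0 without replicate 3 of CS1 or replicate 2 of shFTO).

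With group means taken out, same-numbered libraries of the groups compared correlated across genes at between -0.009 and 0.219. Libraries with different numbers were not compared in this way, so these values cannot settle whether replicate numbers pair the samples. A replicate block left all calls of network genes as they were except MNT between the compounds (adjusted p = 0.0676), MYC in the CS1 minus hairpin difference (-0.42, adjusted p = 0.0296), and the counts that include them. Depth is unknown, and for MGA with CS2, at 0.41 to 0.68 TPM, its effect on precision cannot be given.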
